A study of Arabidopsis thaliana with 12 samples.

Results

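Transcript signals of detoxification genes were followed across ethylene-overproducing Arabidopsis seedlings given small compounds. The set was defined by name as 5 genes, namely the glutathione transferases GSTU22 and GSTU25, the glucosyltransferases UGT73B4 and UGT73B5, and the transporter DTX3. A member was a probe set annotated to 1 of these genes alone. This gave 4 of 22810 probe sets on the array, and 4 of the 13286 genes that a probe set named alone, 1 each for GSTU22 (AT1G78340), GSTU25 (AT1G17180), UGT73B4 (AT2G15490) and UGT73B5 (AT2G15480). No probe set could be matched to DTX3 by symbol or synonym, so none was assigned to it, and it is not analysed here. Whether a probe set named only by locus tag reads DTX3 was not tested. All 4 measured members passed the filter on dim signals that left 14830 probe sets for testing.

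The seedlings were whole 3-day-old plants of the Col-0 background, grown in the dark on 0.5-strength MS medium, with 2 arrays for each of 6 groups. The controls were the wild type Col-0 and untreated eto1-4, a mutant that overproduces ethylene. The other groups were eto1-4 grown with 10 µM of compound 9393, compound 9370, compound 7303 or AVG, which the series describes as antagonists of ethylene. AVG is aminoethoxyvinylglycine, an inhibitor of ACC synthase and of other enzymes that use pyridoxal phosphate, whereas the numbered compounds are known here by their codes. The labels name no solvent control, and every treated group carries the eto1-4 mutation, so no group shows a compound in the wild type. The groups are called by the compound below.

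Plants detoxify foreign and reactive molecules in steps. Cytochromes P450 and related enzymes introduce a reactive group, transferases then attach glutathione or a sugar, and transporters move the conjugate into the vacuole or out of the cell. Tau-class glutathione transferases such as GSTU22 and GSTU25 form a large plant family whose members attach glutathione to electrophilic compounds, and many are induced by herbicides and other chemicals. UGT73B4 and UGT73B5 belong to the family of glycosyltransferases that attach glucose to small molecules, and both are known to be induced in defence and oxidative stress. DTX proteins are multidrug and toxic compound extrusion (MATE) transporters.

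Each array gave 1 linear signal per probe set, and the trimmed mean signal lay between 500.039 and 500.045 on all 12 arrays. Poly-A spike controls, Bacillus transcripts added during sample preparation, had a median signal of 37.0 to 79.7 on 8 arrays and of 3.77 to 8.83 on the other 4, which were replicate 1 of Col-0, eto1-4, 9393 and 9370. Where they bear on a result, values within the spiked and within the unspiked arrays are given with it. The seed storage gene PAP85 had a signal of 6894 on eto1-4 replicate 1, against 42.6 on eto1-4 replicate 2 and 5.11 to 264 on the other 10 arrays, and OLEO3, a seed oil body gene, read 3377 and 1825 on the eto1-4 arrays, next to 2601 on Col-0 replicate 1, 2659 on 9393 replicate 1 and 525 at the lowest. For 25S rRNA, a control probe set gave 208 and 266 in Col-0 and from 494 up to 12724 in the other groups. Their part in the results was not tested. Of the markers of seedling tissues, RCA, the Rubisco activase of photosynthetic cells, read 4144 to 10882. The summed signal of the shoot markers FMA, SPCH, MUTE and CLV3 was 79.1 to 235, and no root marker was among the named probe sets. In whole seedlings, fewer cells of a type and less RNA per cell cannot be told apart.

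None of the 4 measured genes differed at an adjusted p under 0.05 in any of the 15 comparisons, in which 0% to 9.2% of all tested probe sets were called. Their signals were nevertheless far from even: GSTU25 spanned 4.69-fold between its highest and its lowest array, UGT73B4 2.64-fold, GSTU22 2.31-fold and UGT73B5 1.67-fold. The lowest signals of GSTU25 came from 7303, 9370 and AVG seedlings, and those of UGT73B4 from 9370 and 7303 seedlings. Differences below are from a limma fit over all 12 arrays on the log2(signal + 22.4) scale, which understates changes of dim genes, with p-values adjusted by the Benjamini-Hochberg method over all 14830 probe sets. They are given ± SE, with n = 2 arrays per group. The series' design text calls the arrays 2 independent sets, but no label says that the arrays of a group came from separate cultures, and the p-values cover the spread between arrays only, part of which may be technical.

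**Figure D1:**
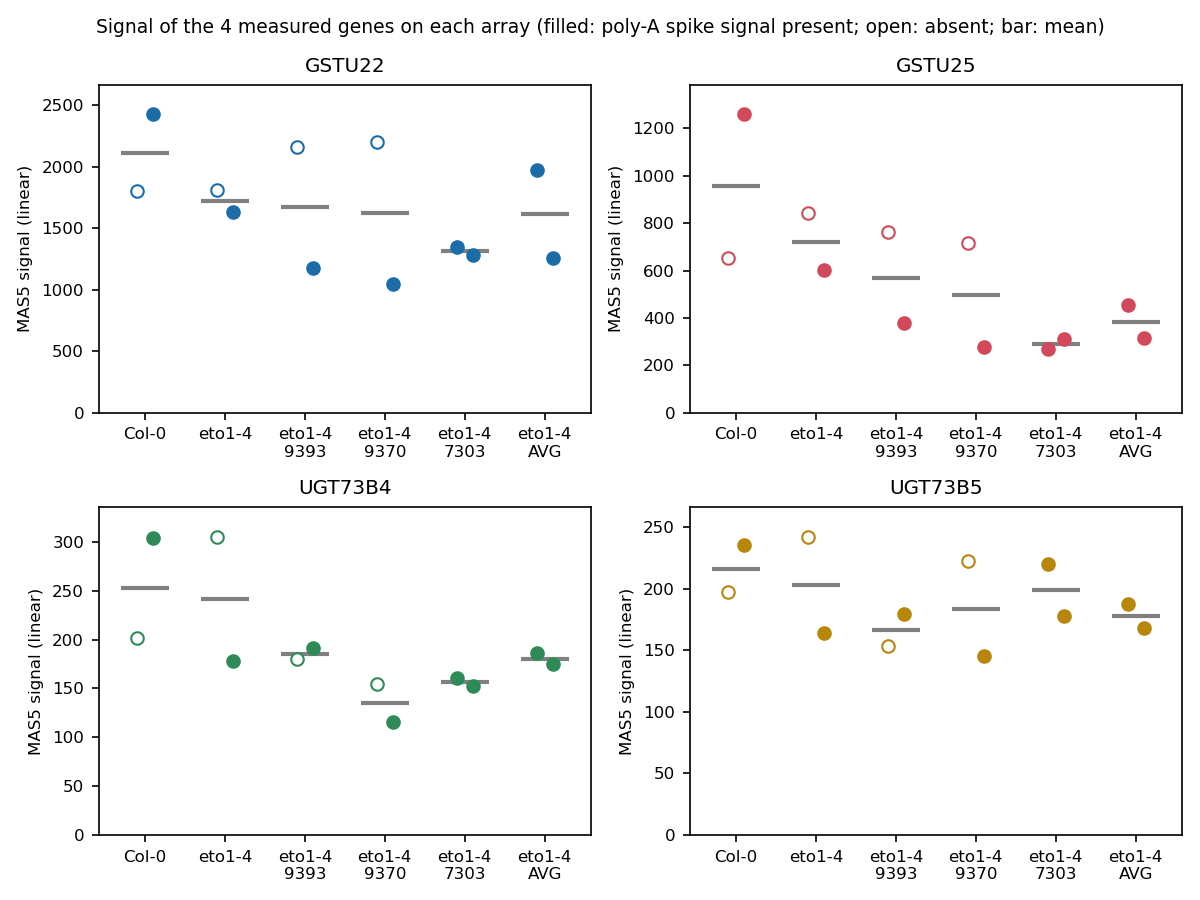
Linear signal (vertical axes, starting at 0) of GSTU22, GSTU25, UGT73B4 and UGT73B5 on each of the 12 arrays, by group. Points are arrays, filled with and open without poly-A spike signal, and bars are the means of 2 arrays. In 9393 and 9370 seedlings the open point of both glutathione transferases lies far above the filled one, whereas the 7303 arrays lie close together.

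GSTU22 was a bright probe set, between the 84.5th and the 93.8th percentile of its array on all 12 arrays. Its signal was 1800 and 2425 in Col-0, 1812 and 1634 in eto1-4, 2157 and 1179 with 9393, 2202 and 1049 with 9370, 1349 and 1281 with 7303, and 1972 and 1257 with AVG, replicate 1 first. The highest array was Col-0 replicate 2 and the lowest was 9370 replicate 2, although the other 9370 array was the second brightest after it. Only the 7303 arrays lay wholly below both eto1-4 arrays; the other treatments overlapped with them. The group means were 2113 ± 442 (SD, n = 2) in Col-0, 1723 ± 126 in eto1-4, 1668 ± 691 with 9393, 1626 ± 816 with 9370, 1615 ± 506 with AVG and 1315 ± 48.2 with 7303. In that order every pair of neighbours overlapped. The difference from eto1-4 was -0.38 ± 0.38 with 7303 (adjusted p = 0.562), and the other treatments gave -0.18 with 9370, -0.13 with AVG and -0.11 with 9393. Against Col-0, 7303 gave -0.66 ± 0.38 (limma adjusted p = 0.324), which passed at 0.0399 when only those groups entered the fit. That fit called 3117 of all 14830 tested probe sets, against 0 in the fit on 12 arrays. The 95% interval of 7303 against eto1-4 ran from 0.426 to 1.38 of the mutant level.

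GSTU25 was the most variable of the 4 genes. Its signal was 652 and 1259 in Col-0, 841 and 604 in eto1-4, 762 and 380 with 9393, 718 and 279 with 9370, 269 and 312 with 7303, and 453 and 316 with AVG. The 7303 and AVG arrays lay below both eto1-4 arrays and both Col-0 arrays, whereas replicate 1 of 9393 and of 9370 lay between the eto1-4 values. The means were, in order, Col-0 956 ± 430 (SD, n = 2), eto1-4 723 ± 168, 9393 571 ± 270, 9370 498 ± 311, AVG 385 ± 97.2 and 7303 290 ± 30.6. The arrays of neighbours overlapped except between AVG and 7303, where the difference was -0.36 ± 0.47 and within the error. Against eto1-4 the largest difference was that of 7303, -1.24 ± 0.47, which is 0.424 of the mutant level with a 95% interval of 0.206 to 0.872. It had an unadjusted limma p of 0.0242 and an adjusted p of 0.148, and so was not called. AVG gave -0.87 ± 0.47 (adjusted p = 0.285), 9370 gave -0.64 and 9393 gave -0.39.

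Against the wild type the distances of GSTU25 were larger. They were -1.58 ± 0.47 with 7303 (limma adjusted p = 0.0917), -1.21 with AVG (0.124), -0.98 with 9370 (0.427) and -0.73 with 9393 (0.657). The 7303 difference from eto1-4 passed at an adjusted p of 0.0349 when only the groups compared entered the fit, and the 7303 and AVG differences from Col-0 passed at 0.0127 and 0.0367. More of the 14830 probe sets were called in those fits too, from 696 to 884 with 7303 against eto1-4. Against Col-0 the counts went from 0 to 3117 with 7303 and from 1365 to 3260 with AVG. In the fit on the 8 spiked arrays the differences from Col-0 were -2.04 with 7303 (adjusted p = 0.0134) and -1.68 with AVG (0.0144), and all probe sets gave 1692 and 2619 calls. They were -1.67 with 9393 (0.0460) and -2.09 with 9370 (0.0274), with 386 and 558 calls over all probe sets against 0 and 0 in the fit on 12 arrays. The latter values compare 1 array with 1 array, and between the unspiked arrays they were 0.22 and 0.14, on the other side of 0. Col-0 is represented there by replicate 2 alone, the brightest GSTU25 array of all, and each lone array is assumed to vary like the other groups.

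UGT73B4 was dimmer, between the 42.8th and the 60.7th percentile of its array. Its signal was 202 and 304 in Col-0, 305 and 178 in eto1-4, 180 and 191 with 9393, 155 and 116 with 9370, 161 and 152 with 7303, and 186 and 175 with AVG. All 8 treated arrays lay below both Col-0 arrays, the closest being 191 with 9393 against 202. In single treatments 21.4% to 38.4% of all tested probe sets lay wholly below these same Col-0 arrays, and the share over all treatments was not computed. The 9370 and 7303 arrays lay below both eto1-4 arrays, and those of 9393 and AVG overlapped with them. Means were 253 ± 72.4 (SD, n = 2) in Col-0, 242 ± 89.9 in eto1-4, 186 ± 7.75 with 9393, 180 ± 8.37 with AVG, 157 ± 5.85 with 7303 and 135 ± 27.9 with 9370. The arrays of neighbours overlapped except between AVG and 7303, where the difference was -0.18 ± 0.27 and within the error. With 9370 the difference from eto1-4 was -0.71 ± 0.27, or 0.610 of the mutant level with an interval of 0.404 to 0.919, at an unadjusted limma p of 0.0229 and an adjusted p of 0.156. With 7303 it was -0.52 (adjusted p = 0.264), with AVG -0.34 and with 9393 -0.30.

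Against Col-0, UGT73B4 gave -0.79 with 9370 (limma adjusted p = 0.311), -0.60 with 7303 (0.210), -0.41 with AVG and -0.38 with 9393. Among the spiked arrays, with Col-0 replicate 2 as the lone wild-type array, the 7303 difference was -0.87. For 9370 it was -1.24 between 1 array of each group, and -0.34 between the unspiked arrays. The mutant array with the highest UGT73B4 signal, eto1-4 replicate 1, was also the array with the high seed storage signal and had no spike signal.

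UGT73B5 was the steadiest of the 4. Its signal was 198 and 236 in Col-0, 243 and 164 in eto1-4, 153 and 179 with 9393, 222 and 146 with 9370, 220 and 178 with 7303, and 188 and 168 with AVG. Every treated group overlapped with eto1-4, and the extremes were eto1-4 replicate 1 and 9370 replicate 2. Group means ran from 217 ± 26.8 (SD, n = 2) in Col-0 over 203 ± 55.2 in eto1-4, 199 ± 30.2 with 7303, 184 ± 54.2 with 9370 and 178 ± 13.8 with AVG to 166 ± 18.4 with 9393, and the arrays of neighbours overlapped. The difference from eto1-4 was -0.01 with 7303, -0.13 with 9370, -0.15 with AVG and -0.24 ± 0.25 with 9393 (limma adjusted p = 0.711). The interval for 7303 ran from -0.56 to 0.53 on the log2 scale. In RefSeq's TAIR10.1 annotation the UGT73B4 locus lies 100% inside the annotated span of UGT73B5. Whether either probe set reads transcripts of both genes was not tested, so the signals of this pair are uncertain.

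Set against the untreated mutant, the called share of the 4 measured genes was 0 in each comparison. The background was 0.661% of all tested probe sets with 9393, 4.05% with 9370, 4.69% with 7303 and 5.32% with AVG, and 2.2% in eto1-4 against Col-0. These backgrounds were not stable: leaving out 1 array gave 0 to 161 calls with 9393, 1 to 682 with 9370, 2 to 1010 with 7303, 4 to 1123 with AVG and 2 to 416 in the mutant comparison. At an unadjusted limma p under 0.05, the 9370 and the 7303 comparison each held 1 of the 4 genes, where the background was 21.6% and 23.7%, and the 9393, AVG and mutant comparisons held 0, where it was 15.5%, 24% and 16.8%. The arrays of 3 of the 4 genes lay wholly below eto1-4 with 7303, as did those of 32.8% of all tested probe sets, and those of 1 gene did so with 9370 (20.2%) and with AVG (30.1%). With 9393 0 of the 4 did (18.9%), and 0 of the 4 lay wholly below Col-0 in eto1-4 (27.2%).

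The signs of the differences ran together. All 16 differences of the 4 genes from eto1-4 under treatment were below 0, and so were all 16 from Col-0 under treatment and all 4 of eto1-4 from Col-0. Of all tested probe sets, 49.5% to 54.8% were below 0 in a treatment against eto1-4. The share was 52.8% to 56.1% in a treatment against Col-0 and 53.6% in eto1-4 against Col-0. The 4 treatments share the eto1-4 arrays, and 33.1% of all tested probe sets were below 0 under all of them. Without eto1-4 replicate 1, 10 of the 16 differences from eto1-4 were below 0, on the spiked arrays alone 11 were, with the spike signal as a block 14, and under quantile normalization or median centring 15. Of the same differences, 13 were below 0 without 9370 replicate 2, 14 without 9393 replicate 2, and 15 without replicate 2 of 7303 or of AVG. Of those from Col-0, 14 were below 0 without 9370 replicate 2. The count was 15 under quantile normalization or median centring, and without replicate 2 of Col-0, 9393 or 7303. Leaving out Col-0 replicate 2, eto1-4 against Col-0 gave 0.12 for GSTU25, 0.20 for UGT73B4 and 0.016 for UGT73B5, while GSTU22 stayed below 0. The median of the 4 genes against eto1-4 was -0.27 with 9393, -0.41 with 9370, -0.45 with 7303 and -0.25 with AVG, beside -0.01, 0.01, -0.05 and -0.04 over all tested probe sets. Centring on array medians in place of the deposited scaling would shift every difference from eto1-4 by 0.10 with 7303 and with AVG, and every difference of these from Col-0 by 0.18.

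**Figure D2:**
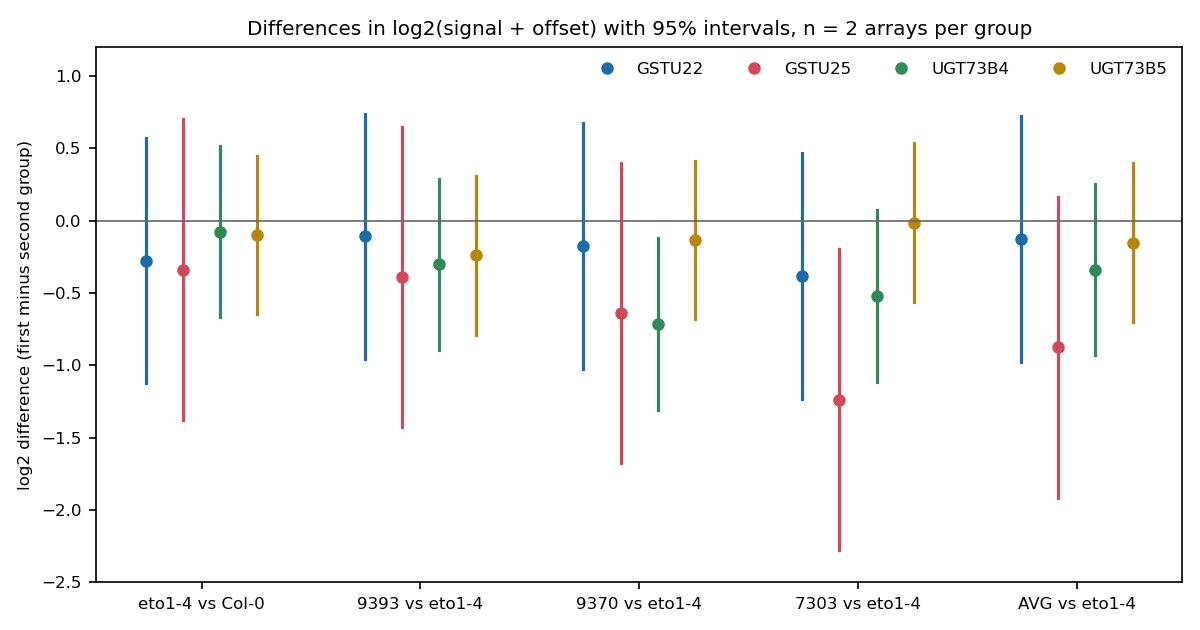
Difference in log2(signal + offset) of the 4 measured genes in the 5 main comparisons, with 95% intervals from the limma fit and n = 2 arrays per group. All points lie below 0, and only the intervals of GSTU25 with 7303 (-2.28 to -0.20) and UGT73B4 with 9370 (-1.31 to -0.12) leave out 0 before adjustment.

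No difference was called between the mutant and the wild type in these genes. Between eto1-4 and Col-0, GSTU25 differed by -0.34 ± 0.47, GSTU22 by -0.28 ± 0.38, UGT73B5 by -0.10 and UGT73B4 by -0.08, and the smallest limma adjusted p was 0.788. This comparison depended on the array set: GSTU25 gave -1.03 between the spiked arrays and 0.36 between the unspiked ones, UGT73B4 gave -0.70 and 0.55, UGT73B5 gave -0.47 and 0.27, and GSTU22 gave -0.56 and 0.01. The 95% interval of GSTU25 ran from 0.385 to 1.63 of the wild-type level.

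The treatments were compared with each other directly, since all were given at 10 µM and for the same age. None of the 24 tests, 4 genes in 6 pairs of treatments, was called by limma or had an unadjusted p under 0.05, and the smallest adjusted p was 0.597. Across all tested probe sets the called share was 0% in 4 of the pairs and 0.00674% in the pairs 9393 with AVG and 9370 with AVG. The share at an unadjusted p under 0.05 was 0.89% for 9393 with 9370, 5.13% for 9393 with 7303, 11.8% for 9393 with AVG, 6.47% for 9370 with 7303, 12.9% for 9370 with AVG and 3.96% for 7303 with AVG. GSTU25 was higher with 9393 than with 7303 by 0.85 ± 0.47, with an interval of -0.19 to 1.89, and higher with 9370 than with 7303 by 0.60, with an interval of -0.44 to 1.64. Both 7303 arrays were spiked, and between spiked arrays these differences were 0.37 and -0.05, so that the second changed sign; GSTU22 with 9393 was 0.28 above 7303 over all arrays and -0.15 between spiked ones. UGT73B4 was higher with 9393 than with 9370 by 0.41 ± 0.27, with an interval of -0.18 to 1.004. The difference was 0.63 between the spiked and 0.19 between the unspiked arrays. Set against AVG, all 4 arrays being spiked, 7303 gave -0.36 for GSTU25, with an interval of -1.40 to 0.68, and -0.26 for GSTU22, with an interval of -1.10 to 0.59. These intervals are wide, and a p above the threshold does not show that the compounds act alike. Structures of the numbered compounds are not given in the labels.

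Against Col-0, the calls over all tested probe sets were 0% with 9393, 9370 and 7303 and 9.2% with AVG, and the 4 genes again gave 0 limma calls in each. The AVG count of 1365 calls became 0 without Col-0 replicate 2 or AVG replicate 1, 2 without AVG replicate 2, 161 without Col-0 replicate 1, and 883 and 878 without 7303 replicate 1 and 2. The 7303 count of 0 became 580 and 575 without 9393 replicate 1 and 2, 364 and 351 without those of 9370, 177 and 178 without those of eto1-4, and 8 without Col-0 replicate 1. The unadjusted count was 1 gene with 9370, 2 with 7303, 1 with AVG and 0 with 9393, beside 12.2%, 23.6%, 27.9% and 9.7% of all tested probe sets. Arrays lay wholly below Col-0 for 2 of the 4 genes with 9393 (21.9% of all tested probe sets), 1 with 9370 (21.4%), 3 with 7303 (38.1%) and 3 with AVG (38.4%).

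Replicates of the glutathione transferases differed most in 2 treatments. GSTU22 was higher on replicate 1 than on replicate 2 by 0.86 with 9393 and 1.05 with 9370 on the log2 scale, and GSTU25 by 0.96 and 1.30. For GSTU22 and GSTU25 the same difference was -0.43 and -0.93 in Col-0 and 0.15 and 0.46 in eto1-4. It was 0.64 and 0.49 with AVG and 0.07 and -0.20 with 7303, where both replicates were spiked. UGT73B4 gave -0.08 and 0.36 in those treatments and 0.71 in eto1-4. In 9393 and 9370, as in Col-0 and eto1-4, replicate 1 had no spike signal and replicate 2 did. Against eto1-4, GSTU25 with 9370 gave -1.06 between spiked arrays and -0.22 between unspiked ones. GSTU22 with 9370 gave -0.63 and 0.28, and with 9393 -0.46 and 0.25, so its sign differed between the array sets. UGT73B4 with 9370 gave -0.54 and -0.89, the same sign in both. Both 7303 and both AVG arrays carried spike signal, and against the spiked eto1-4 array GSTU25 gave -1.005 with 7303 and -0.64 with AVG.

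The signals of the 2 glutathione transferases had a Pearson's r of 0.88 and a Spearman's rho of 0.82 over 12 arrays, and r was 0.88 without the 2 arrays farthest from the GSTU22 median and 0.87 on the 8 spiked arrays. The glucosyltransferase pair had an r of 0.67 and a rho of 0.54. Its r was 0.27 without the 2 arrays farthest from the UGT73B4 median, eto1-4 replicate 1 and Col-0 replicate 2, so over 12 arrays it rested on them. It was 0.74 on the 8 spiked arrays, which still hold Col-0 replicate 2. GSTU25 and UGT73B4 had an r of 0.75 and a rho of 0.71, and the other 3 pairs had an r of 0.48 to 0.58. Without the 2 arrays farthest from the GSTU25 median, r was 0.63 for GSTU25 with UGT73B4 and 0.56 with UGT73B5. Without those farthest from the GSTU22 median, it was 0.48 for GSTU22 with UGT73B4 and 0.30 with UGT73B5. All 6 correlations are descriptions over arrays that share groups, scaling and spike state.

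**Figure D3:**
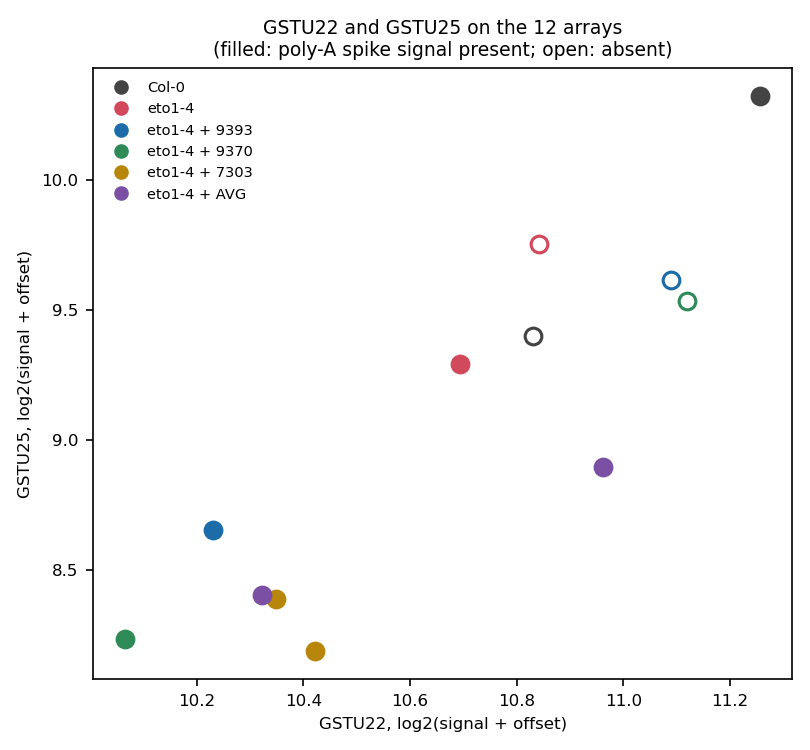
GSTU25 against GSTU22, both as log2(signal + offset), with 1 point per array, coloured by group and open where poly-A spike signal was absent. The open 9393 and 9370 points lie in the upper part with the untreated arrays, and their filled partners lie in the lower left with the 7303 arrays and 1 AVG array.

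Genes with the pattern most like each member over the 12 arrays were taken from all other tested probe sets naming 1 gene. For GSTU22 they were AT5G14730 (r = 0.93), AT1G70810 (0.92) and AT4G16260 (0.91). For GSTU25 they were AT4G14020 (0.96), AT1G18980 (0.96) and FRO1 (0.95), which is here the FROSTBITE1 gene and not ferric reduction oxidase. UGT73B4 was most like AT1G29120 (0.89), AT3G03890 (0.89) and AT4G08790 (0.88), and UGT73B5 most like AT5G33300 (0.82), AT5G58510 (0.82) and AT4G07390 (0.77). The 4 members were left out of this search, so it cannot show whether they would rank among each other's nearest patterns. No other listed detoxification gene was among these 12 genes. These genes were picked as the highest of the 7995 tested probe sets naming 1 gene, and taken over the 6 group means the top 3 genes of each member were all different ones.

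Both glutathione transferase genes lie in clusters of their family, and each had a measured neighbour. GSTU20, a tau-class enzyme 2 genes from GSTU22, read 461 and 489 in Col-0, 409 and 186 in eto1-4, 279 and 175 with 9393, 217 and 174 with 9370, 119 and 142 with 7303 and 114 and 148 with AVG. Its arrays under 7303 and AVG lay below both eto1-4 arrays, as did those of 32.8% and 30.1% of all tested probe sets. The differences were -0.98 in both (limma adjusted p = 0.110 and 0.105). GSTU26, the neighbour of GSTU25, read 1373 and 1584 in Col-0, 704 and 1264 in eto1-4, 1242 and 1747 with 9393, 1469 and 2332 with 9370, 2320 and 2222 with 7303, and 1748 and 1809 with AVG. It rose with 7303 by 1.25 ± 0.30 (limma adjusted p = 0.0467), the comparison in which GSTU25 gave -1.24, so the signals of these adjacent genes lay on opposite sides of the mutant. GSTU21 and GSTU23 were below the filter, and GSTU19 and GSTU24 had no named probe set.

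Of the tau-class glutathione transferases other than the members, 6 were tested: GSTU16, GSTU18, GSTU20, GSTU26, GSTU27 and GSTU28. With 9370, 1 rose and 5 did not pass, and with 7303 again 1 rose and 5 did not pass. Of all tested probe sets, 4.05% and 4.69% were called in these comparisons. With 9393, with AVG and in the mutant against the wild type, limma called 0 of 6, and 1, 2 and 2 had an unadjusted p under 0.05. The shares over all tested probe sets were 0.661%, 5.32% and 2.2% called, and 15.5%, 24% and 16.8% at that unadjusted p. The riser with 9370 was GSTU18, at 190 and 235 in eto1-4 and 578 and 582 with 9370, next to 492 and 558 in Col-0. The difference between 9370 and the mutant was 1.37 ± 0.28 (limma adjusted p = 0.0302). The list's median with 9370 was -0.21 and with 7303 -0.02, beside 0.01 and -0.05 over all tested probe sets. The call of GSTU18 held in 15 of 23 alternatives, and was lost on the spiked arrays alone (1.23, adjusted p = 0.165), where GSTU26 was called under 9370 (0.87, 0.0474). It was lost without either array of Col-0, eto1-4 or 9370, where the difference was 1.23 to 1.51 and the adjusted p 0.0545 to 0.170. The call of GSTU26 held in 13 of 23. It was lost without either array of Col-0, 7303 or AVG, or without eto1-4 replicate 1, where the difference was 0.83 to 1.28 and the adjusted p 0.0717 to 0.298.

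Outside the tau class, GSTF4 of the phi class and GSTL3 of the lambda class were tested. GSTF4 read 124 and 79.6 in eto1-4, 251 and 255 with 7303, 220 and 297 with AVG, and 199 and 311 in Col-0. Against the mutant, GSTF4 rose by 1.17 ± 0.27 with 7303 (limma adjusted p = 0.0394) and by 1.18 ± 0.27 with AVG (0.0348). Each of these calls held in 15 of 23 alternatives. Both were lost without either array of eto1-4, 7303 or AVG, where the difference was 0.91 to 1.43 with 7303 and 0.92 to 1.45 with AVG, at adjusted p-values of 0.0514 to 0.209 and 0.0640 to 0.160. GSTL3 gave -0.83 with 7303 (0.0978) and -0.69 with AVG (0.147), on the other side of 0. Across the other glutathione transferases, 1 of 2 rose with 7303 and 1 of 2 with AVG, where 4.69% and 5.32% of all tested probe sets were called. In the other main comparisons 0 of 2 passed, and 1 of 2 had an unadjusted p under 0.05 in each. There 0.661% to 4.05% of all tested probe sets were called, and 15.5% to 21.6% had an unadjusted p under 0.05.

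**Figure D4:**
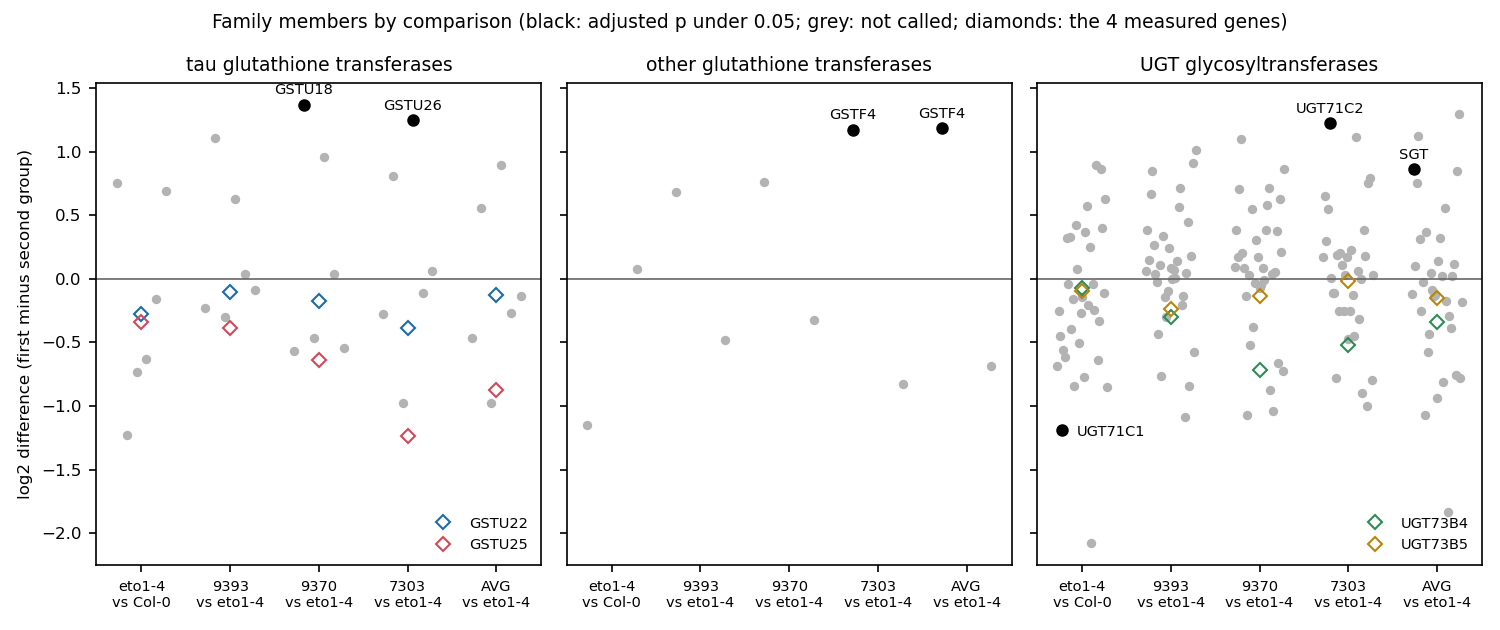
Difference in log2(signal + offset) in the 5 main comparisons for tau-class glutathione transferases, other glutathione transferases and UGT glycosyltransferases. Grey points are genes not called, black labelled points genes with an adjusted p under 0.05, and diamonds the 4 measured members, which lie below 0 in all comparisons while the called genes under treatment lie above it.

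Of the UGT glycosyltransferases, 33 other than the members were tested, and 3 of their 165 limma tests in the main comparisons passed. In those comparisons 0.661% to 5.32% of all tested probe sets were called. UGT71C1, from a group of enzymes that glucosylate phenolic compounds, fell in the mutant from 442 and 481 in Col-0 to 144 and 250, a difference of -1.19 ± 0.26 (adjusted p = 0.0487). Its call held in 6 of 23 alternatives. It was lost in 8 of the 11 that keep all or the spiked arrays, with no offset, quantile normalization, median centring, both other filters, only the groups compared, no intensity trend and the spiked arrays alone (adjusted p = 0.0512 to 0.120). It was also lost without either array of Col-0, 9393, 7303 or AVG and without eto1-4 replicate 1, where the difference was -1.24 to -0.83 and the adjusted p 0.0524 to 0.280. UGT71C2, of the same group, read 78.9 and 153 in eto1-4 and 329 and 254 with 7303, and rose by 1.22 ± 0.29 (0.0421). SGT, the sterol glucosyltransferase also known as UGT80A2, read 582 and 692 in eto1-4 and 1133 and 1210 with AVG, and rose by 0.86 ± 0.20 (0.0390). The UGT71C2 call held in 12 of 23 alternatives and was lost without either array of Col-0, 7303 or AVG or without eto1-4 replicate 1 (0.83 to 1.40, adjusted p = 0.0575 to 0.264). The SGT call held in 13 of 23 and was lost without either array of Col-0, eto1-4, 7303 or AVG (0.74 to 0.98, adjusted p = 0.0598 to 0.215). With 9393 and with 9370, 0 of 33 were called, and 6 and 5 had an unadjusted p under 0.05. The shares over all tested probe sets were 0.661% and 4.05% called, and 15.5% and 21.6% at that unadjusted p. The median of the 33 genes was 0.07 with 9393, 0.09 with 9370, 0.03 with 7303, -0.09 with AVG and -0.21 in the mutant against the wild type. UGT73B1, the other tested gene of the UGT73B group, gave -0.38 with 9370 and 0.11 with 7303 (adjusted p = 0.546 and 0.856).

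Of the listed genes for a response to xenobiotics and oxylipins, 3 were tested, and 0 of 15 limma tests passed, with 5 at an unadjusted p under 0.05. These genes were AER, GRX480 and UGT73B1, the last also counted among the UGT glycosyltransferases above. UGT73B1 gave 0.11 with 7303 and 0.05 with AVG (limma adjusted p = 0.856 and 0.942). In the main comparisons 0.661% to 5.32% of all tested probe sets were called, and 15.5% to 24% had an unadjusted p under 0.05. AER, an alkenal reductase that acts on reactive carbonyls, gave -0.83 with 7303 (adjusted p = 0.167) and -0.77 with AVG (0.190). GRX480, a glutaredoxin that binds TGA factors, gave -1.13 with 7303 (0.0982), -1.12 with AVG (0.0929) and -1.02 with 9393 (0.214). The glutathione reductases GR and GR1, which keep glutathione in its reduced form, had 0 of 10 tests called and 0 at an unadjusted p under 0.05, and their differences lay between -0.55 and 0.18.

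Of the cytochromes P450, 11 were tested, and 1 gene accounted for the 3 calls in 55 tests. In the main comparisons 0.661% to 5.32% of all tested probe sets were called. CYP718 read 13.4 and 11.5 in Col-0, 268 and 396 in eto1-4, 36.0 and 46.0 with 9393, 11.5 and 43.4 with 9370, 102 and 56.9 with 7303, and 3.55 and 55.2 with AVG. The mutant arrays stood above all others. On the log2(signal + offset) scale it rose in the mutant by 3.32 ± 0.51 (limma adjusted p = 0.0170) and fell against the mutant by 2.88 with 9370 (0.0218) and by 2.96 with AVG (0.0160). Both Col-0 arrays and replicate 1 of 9370 and of AVG lay below the offset, so these sizes depend on it. With no offset the mutant difference was 4.71 (0.0630) and that of 9370 -3.87 (0.0833), neither of them called. On the spiked arrays alone they were 3.62 (0.0891) and -2.67 (0.108). With only the groups compared, the 9370 and AVG differences had adjusted p-values of 0.0762 and 0.0538. The first call was lost without either array of Col-0 or eto1-4 (3.06 to 3.59, adjusted p = 0.0558 to 0.146). The second was lost without either eto1-4 array or 9370 replicate 1 (-3.15 to -2.40, adjusted p = 0.0655 to 0.0898), and the third without either eto1-4 array or AVG replicate 1 (-3.22 to -2.17, adjusted p = 0.0541 to 0.142).

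Of the export step, little could be measured. Matching used symbols and synonyms, and only part of the probe sets carry a gene name, so other transporters may be among the unnamed ones. DTX50 was the only MATE transporter matched by name, with a signal of 3.48 to 55.9, above the 40th percentile of the array on 0 arrays, and it was not tested. AT2G04050, the gene beside DTX1, was measured under its locus tag. Over the treatments its differences from eto1-4 ran from -0.62 to 0.18 (limma adjusted p = 0.395 to 0.899). Between eto1-4 and Col-0 it gave -0.42 (0.691). AT2G04060, the gene after it, did not enter the fit. Whether either gene encodes a transporter was not tested. No ABC transporter of the listed subfamilies was matched by name, and none is analysed here.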

How the data were processed

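Biotin-labelled target from total RNA of whole seedlings was hybridised to 12 Affymetrix arrays, 2 for each of 6 groups assigned from the sample titles. The deposited values are linear signal intensities that the authors computed with MAS5, per the submitters' processing notes; version and settings are not stated there. Their unit fixes no depth, so the number of arrays limits the precision. Here 22.4, the 20th percentile of the signals, was added to each deposited intensity before log2 was taken. The 64 control probe sets were not tested, and the filter required a signal over the 40th percentile of at least 2 arrays.

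Platform annotation gave the gene names, which were brought to RefSeq symbols and locus tags of TAIR10.1 by gene identifier. Of 22810 probe sets, 13436 named 1 gene, and 7995 of the 14830 tested ones did. ETO1 is not analysed here. Family lists were matched on symbol or RefSeq synonym, with 1 probe set per gene, the brightest. The cyclophilin CYP71 was left out of the cytochromes P450. The sequence and promoter comparisons were not run, as no sequences were at hand.

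A limma 3.58.1 model under R 4.3.3 held 6 group means with an intensity trend (residual df 6, prior df 4.07). Benjamini-Hochberg adjustment was made separately in 15 comparisons, and a call is an adjusted p under 0.05. The fit was also run on simulated data with independent noise on each array and changes placed in eto1-4 only. Those data held no spike state or deviations shared between arrays, so they do not test the fit under such structure. Arrays counted as spiked where the median of the poly-A spike probe sets exceeded the offset, a limit chosen after the data were seen. The text names the members, the 3 genes most like each over the 12 arrays, called genes of the family lists (at most 3 per list and comparison), and the seed genes PAP85 and OLEO3. Gene neighbours, and genes named though not called, were chosen after the data were seen. The members and lists were chosen with earlier results of these data known. The alternatives were no offset or an offset of 100, quantile normalization, median centring, no filter, a filter at the 60th percentile, the compared groups alone, no intensity trend, replicate or spike blocks, the spiked arrays alone, and leaving out each array.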

Additional observations from a re-analysis of the deposited data

How the results depend on the processing

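Over 23 alternatives, 12 of which leave out 1 array, the 60 member differences gave 1365 values, of which 1281 kept direction and side of the threshold, 10 newly passed and 74 changed sign, none of the latter called. UGT73B5 could not be tested with the filter at the 60th percentile, and the promoter description was not run. When the fit held the compared groups alone, 1 member was called in 7303 against eto1-4, 2 in 7303 against Col-0 and 1 in AVG against Col-0, beside 884, 3117 and 3260 of 14830 probe sets (696, 0 and 1365 in the fit on all arrays). On the spiked arrays alone, 1 was called with 9393, 2 with 9370, 2 with 7303 and 1 with AVG against Col-0, beside 386, 558, 1692 and 2619 probe sets (0, 0, 0 and 1365). No fit without 1 array called a member. The cause was not tested, but the spiked fit holds 1 array in each of Col-0, eto1-4, 9393 and 9370, and each lone array is assumed to vary like the other groups.

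With no filter, more probe sets enter the adjustment. The calls were then 0 for UGT genes in eto1-4 against Col-0 and under 7303 and AVG, 0 for tau-class transferases under 7303, 0 for other glutathione transferases under 7303 and AVG, and 2 for cytochromes P450 under AVG. No share of all probe sets stands beside these counts, so they do not set a family against the background. The spiked arrays hold 1 array of eto1-4, so only differences are given for them. In the mutant GSTF4 gave -1.71, GT72B1 -1.20, UGT71C1 -0.89 and CYP718 3.62. Under 9370 GSTU18 gave 1.23, GSTU26 0.87, UGT78D2 -2.13 and CYP718 -2.67. UGT71C2 gave 0.83 under 7303, and under AVG SGT gave 0.74 and UGT78D2 -2.43. Of the 3 genes most like each member, 0 of those of GSTU22, 0 of GSTU25, 0 of UGT73B4 and 0 of UGT73B5 were shared with the top 3 over the 6 group means. Over the 8 spiked arrays 1 of GSTU22, 0 of GSTU25, 0 of UGT73B4 and 0 of UGT73B5 were shared.

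Signs changed as follows on the log2 scale. Under quantile normalization UGT73B5 gave 0.070 for 7303 against eto1-4, 0.049 for 7303 against Col-0 and -0.080 for 9370 against AVG, and UGT73B4 gave -0.037 for 9393 against AVG. Under median centring UGT73B4 gave 0.0037 for eto1-4 against Col-0 and -0.044 for 9393 against AVG, UGT73B5 gave 0.089 for 7303 against eto1-4, 0.070 for 7303 against Col-0 and -0.10 for 9370 against AVG, and GSTU22 gave -0.063 for 9393 against AVG. With the spike block UGT73B5 gave 0.063 for 7303 against eto1-4 and -0.059 for 9370 against AVG, GSTU22 gave 0.078 for AVG against eto1-4 and -0.19 for 9393 against AVG, and UGT73B4 gave -0.019 for 9393 against AVG.

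On the spiked arrays alone and against eto1-4, UGT73B4 gave 0.090 with 9393 and 0.015 with AVG, and UGT73B5 gave 0.11 with 9393, 0.24 with 7303 and 0.10 with AVG. Between treatments there, UGT73B5 gave 0.26 for 9393 against 9370, 0.011 for 9393 against AVG and -0.25 for 9370 against AVG. GSTU22 gave -0.15 for 9393 against 7303, -0.41 for 9393 against AVG and -0.32 for 9370 against 7303, and GSTU25 gave -0.051 for 9370 against 7303 and -0.41 for 9370 against AVG.

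Leaving out 1 array gave these ranges. For eto1-4 against Col-0, GSTU25 ranged from -0.80 to 0.12, UGT73B4 from -0.43 to 0.28 and UGT73B5 from -0.35 to 0.15. For 9393 against eto1-4, GSTU22 ranged from -0.54 to 0.32, GSTU25 from -0.87 to 0.092, UGT73B4 from -0.66 to 0.052 and UGT73B5 from -0.49 to 0.011. For 9370 against eto1-4, GSTU22 ranged from -0.70 to 0.35, GSTU25 from -1.29 to 0.010 and UGT73B5 from -0.40 to 0.14. UGT73B5 ranged from -0.27 to 0.24 for 7303 and from -0.40 to 0.10 for AVG against eto1-4, where with AVG GSTU22 ranged from -0.45 to 0.19 and UGT73B4 from -0.69 to 0.015. Against Col-0, GSTU22 ranged from -0.81 to 0.045 with 9393 and from -0.98 to 0.075 with 9370, and UGT73B5 from -0.50 to 0.039 with 9370 and from -0.25 to 0.027 with 7303.

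Between 9393 and 9370, GSTU22 ranged from -0.46 to 0.60, GSTU25 from -0.40 to 0.90 and UGT73B5 from -0.38 to 0.16, and between 9393 and 7303 GSTU22 ranged from -0.15 to 0.70. Between 9393 and AVG, GSTU22 ranged from -0.41 to 0.45, UGT73B4 from -0.0051 to 0.079 and UGT73B5 from -0.19 to 0.011. Between 9370 and 7303, GSTU22 ranged from -0.32 to 0.73, GSTU25 from -0.051 to 1.25 and UGT73B5 from -0.39 to 0.15. Between 9370 and AVG, GSTU22 ranged from -0.58 to 0.48, GSTU25 from -0.41 to 0.88 and UGT73B5 from -0.25 to 0.29. Between 7303 and AVG, GSTU22 ranged from -0.58 to 0.064 and UGT73B5 from -0.0017 to 0.28.

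The condition for pairing by replicate number, a correlation of same-numbered deviations over 0.1 in every pair of groups, was not met: in 15 pairs it was -0.27 to 0.78 and over 0.1 in 5. Those 5 were among the 6 pairs of the 4 groups with 1 unspiked array, and the other 9 pairs reached 0.090 at most. The labels do not say that a number marks a set. With the replicate block, no member call changed, and the calls over all probe sets were 464 for eto1-4 against Col-0 (326 without it), 164 with 9393 (98), 784 with 9370 (600), 1008 with 7303 (696) and 1112 with AVG (789) against eto1-4, and 354 (0) for 7303 and 1746 (1365) for AVG against Col-0. With the spike block the calls against eto1-4 were 578 with 9393, 1591 with 9370, 846 with 7303 and 1104 with AVG, and 942 for eto1-4 against Col-0. Without eto1-4 replicate 1 they were 0 with 9393, 1 with 9370, 21 with 7303, 18 with AVG and 37 for the mutant. Without Col-0 replicate 2 they were 5, 292, 346, 487 and 2, without Col-0 replicate 1 5, 284, 346, 487 and 72, and without 7303 replicate 1 15, 254, 5, 359 and 128. Without 7303 replicate 2 they were 15, 261, 2, 359 and 114. Other losses were to 3 with 9393 without its replicate 2, to 219 and 107 with 9370 without its replicate 1 and 2, and to 4 and 327 with AVG without its replicate 1 and 2; without eto1-4 replicate 2 the 9393 calls were 161. The spread between 2 arrays per group and the missing spike signal on 4 arrays limit every member value.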
